A study of Rattus norvegicus with 6 samples.

Results

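The 10 genes described here encode proteins of the node of Ranvier, the paranode and the juxtaparanode, and they were followed in rat trigeminal ganglia: Gldn, Cldn19, Nfasc, Nrcam, Cntn1, Cntnap1, Cntn2, Cntnap2, Ank3 and Sptbn4. They were chosen by symbol from the deposited count table, and all 10 were found among its 29884 genes and passed the filter on low counts that left 16478 genes for testing. In the trigeminal ganglion lie the somata of neurons that carry facial sensation, with their satellite glia and a part of their myelinated axons. The tissue came from wild-type rats, in every case after chronic constriction of the infraorbital nerve (CCI-ION), a branch that supplies the face and a model of trigeminal neuralgia. The 3 injury samples had the constriction alone, and the 3 conduit samples had the constriction and the SFM-Gel @NGC-Light treatment, a light-driven nerve conduit. No uninjured ganglion was analysed here, and strain, sex and age are not given in the labels. Each sample has a day after injury of its own in the labels, 14, 15 and 16 for injury and 17, 18 and 19 for conduit, so day and treatment cannot be told apart. These days go up by 1 from each sample to the next in the order of the labels, so they may not be the days of sampling. Batch 1 held injury samples 1 and 2, batch 2 injury sample 3 and conduit sample 1, and batch 3 conduit samples 2 and 3.

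The node of Ranvier is the short gap between myelin segments where sodium channels are gathered and the action potential is renewed. In peripheral nerve, Schwann cells release gliomedin (Gldn) at their microvilli, and it binds the axonal adhesion molecules neurofascin (Nfasc) and NrCAM (Nrcam), which are held to the cytoskeleton by ankyrin-G (Ank3) and beta-IV spectrin (Sptbn4). Beside the node, at the paranode, axonal contactin-1 (Cntn1) and Caspr (Cntnap1) meet the glial form of neurofascin and seal the myelin loops to the axon, and claudin-19 (Cldn19) forms tight junctions between the loops of the Schwann cell itself. Further out, at the juxtaparanode, contactin-2 (Cntn2) and Caspr2 (Cntnap2) gather potassium channels under the myelin. Antibodies against several of these proteins cause autoimmune nodopathies of peripheral nerve.

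Gldn and Cldn19, made by myelinating Schwann cells, had the largest differences of the members. Mean Gldn was 1.41 times the injury level in conduit and Cldn19 1.25 times, and for both genes the groups did not overlap. The members other than Gldn, Cldn19 and Nfasc differed between the group means by at most 10.7%, with libraries of the groups overlapping in each. No member passed edgeR's quasi-likelihood test at an adjusted p under 0.05 over all genes, a threshold that 1 gene in all passed (0.00607% of those tested). DESeq2 called 1 member, Gldn, where it called 1.23% of 17126 genes, and limma-voom called 0. At an unadjusted edgeR p under 0.05 there were 2 members, both higher in conduit, where 5.35% of all genes tested lay, 2.99% higher and 2.36% lower. With batch in edgeR's quasi-likelihood fit neither stayed under 0.05 unadjusted (Gldn 0.114, Cldn19 0.324, with a Benjamini-Hochberg adjusted p = 1 for both). The group difference in that fit rests on conduit sample 1 against injury sample 3, as only batch 2 held both groups. The groups did not overlap for 3 members, all with conduit above, against 9.63% of all genes tested in either direction, 5.41% with conduit above and 4.22% with conduit below. In the deposited FPKM values 4 members did not overlap, Gldn and Cldn19 with conduit above and Cntn1 and Cntnap1 with conduit below, against 10.5% of all genes. The median log2 fold change over the 10 members was -0.03, beside 0.0017 over all genes tested.

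The 6 libraries held 40.2 M to 41.9 M counts. Levels are CPM, read counts scaled to library size with TMM factors, given in the order of samples 1, 2 and 3 of each group. Neuronal and Schwann cell markers were present in every library, with none at 0. Markers of other tissues were uneven: 6 skeletal muscle markers summed to 7984 CPM in conduit sample 2 and to at most 449.6 in the others, 6 pituitary markers to 6112 CPM in injury sample 1 and to at most 16.9 in the others, and 6 erythroid markers to 3742 to 4388 CPM in injury and 397 to 871 in conduit. Markers of oligodendrocytes, the myelinating glia of the central nerve root, summed to between 55.1 and 740.6 CPM, highest in injury sample 3 and conduit sample 1. In such bulk tissue fewer cells of a type and less RNA per cell cannot be told apart. Whether the samples came from separate animals is not given in the labels, and p-values measure only the spread between them, which may be technical.

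**Figure D1:**
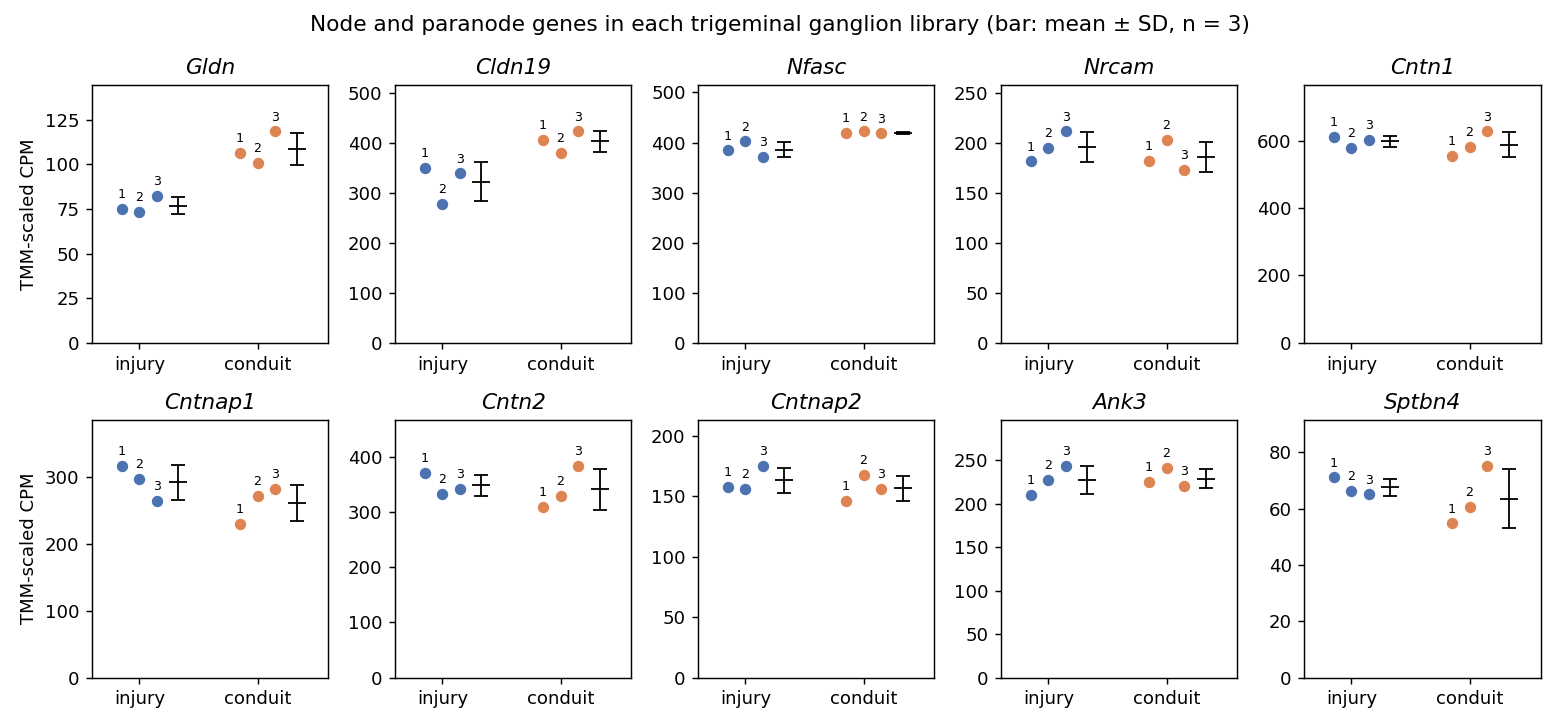
TMM-scaled CPM (vertical axis, from 0) of the 10 genes in the 3 injury (blue) and 3 conduit (orange) libraries, each point marked with its sample number, with mean ± SD beside them. Gldn, Cldn19 and Nfasc had all 3 conduit libraries above all 3 injury libraries, and the other 7 genes overlapped.

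The stretches of genome just upstream of Gldn and Cldn19 are shown because these are the members with the largest differences, and that of Sptbn4 as an axonal member; the 3 were chosen after their values were seen. Each runs 5′ to 3′ over the 250 bases before the annotated start, from RefSeq on GRCr8, a later build than the mRatBN7.2 of the counts. Capitals mark GTGGGCG, a core of the sites bound by EGR family factors such as Egr2. Gldn lies at chr8:63575020-63575269 (plus strand), Cldn19 at chr5:138148325-138148574 (plus strand) and Sptbn4 at chr1:91864841-91865090 (minus strand).
Gldn: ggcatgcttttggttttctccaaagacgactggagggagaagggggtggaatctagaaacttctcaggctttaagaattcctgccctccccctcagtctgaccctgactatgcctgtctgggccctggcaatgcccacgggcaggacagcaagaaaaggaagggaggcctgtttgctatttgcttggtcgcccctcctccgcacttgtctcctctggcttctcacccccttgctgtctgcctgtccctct
Cldn19: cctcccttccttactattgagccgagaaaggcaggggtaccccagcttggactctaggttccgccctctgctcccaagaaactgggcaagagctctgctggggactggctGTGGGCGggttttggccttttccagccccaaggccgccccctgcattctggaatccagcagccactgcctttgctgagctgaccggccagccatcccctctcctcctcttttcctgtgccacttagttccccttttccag
Sptbn4: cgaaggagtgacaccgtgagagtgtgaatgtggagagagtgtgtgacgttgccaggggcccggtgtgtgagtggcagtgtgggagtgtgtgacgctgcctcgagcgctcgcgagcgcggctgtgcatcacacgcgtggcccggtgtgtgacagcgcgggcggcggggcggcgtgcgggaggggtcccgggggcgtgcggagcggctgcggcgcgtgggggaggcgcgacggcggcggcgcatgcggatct
The promoter table held windows for 7 of the 10 members, with 2 annotated starts for Nfasc. On both strands, GTGGGCG was found in the Cldn19 window only, on the strand of the gene and starting at position -140 from the annotated start, and 6.27% of all 33469 windows of this length hold it. ACAAAG, a core of SOX family sites, and TATAAA were in none of the 8 member windows, against 16.3% and 12.9% of all windows. The Sptbn4 window was 72.4% G or C with 35 CpG pairs, the Gldn window 56.4% with 4 and the Cldn19 window 60.0% with 5, beside medians of 51.2% and 5 over all windows. A match of letters is a description and shows no binding.

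Gldn, the Schwann cell protein that gathers the axonal node, was at 75.0, 73.3 and 82.3 CPM in injury and at 106.5, 100.8 and 118.3 in conduit. The lowest conduit library lay above the highest injury library. The means were 76.9 ± 4.81 and 108.6 ± 8.95 CPM (SD, n = 3), a log2 fold change of 0.50 (SE 0.094, 95% interval 0.27 to 0.72; edgeR quasi-likelihood adjusted p = 0.413, unadjusted p = 0.0012). This was the 48th smallest of 16478 p-values. DESeq2 gave 0.50 with an adjusted p of 0.00194, and limma-voom 0.50 with an adjusted p of 0.434. Within batch 2, the one batch with a library of each group, conduit sample 1 was above injury sample 3 by 0.37 on the log2 scale, and with each library left out the fold change was between 0.43 and 0.56.

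Cldn19, the claudin of Schwann cell paranodal loops, was at 349.9, 278 and 339 CPM in injury and at 406, 379.8 and 423 in conduit. Injury sample 2 was the lowest of all 6 libraries, and the groups did not overlap. The means were 322 ± 38.6 and 403 ± 21.5 CPM (SD, n = 3), a log2 fold change of 0.32 (SE 0.111, 95% interval 0.06 to 0.59; edgeR quasi-likelihood adjusted p = 0.829, unadjusted p = 0.0238). DESeq2 did not call it (adjusted p = 0.318). The value was 0.23 without injury sample 2 and 0.26 within batch 2. Its unadjusted p in edgeR's quasi-likelihood test was 0.0714 with injury sample 2 left out, 0.0565 with conduit sample 1 left out and 0.0662 with conduit sample 3 left out.

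Both genes were higher together with markers of myelinating Schwann cells. All 10 of these markers were higher in conduit, 9 without overlap between groups and Mbp with overlap (log2 fold change 0.24, SE 0.255). None of the 10 was at 0 in any library. Their sum was 30420 to 37260 CPM in injury and 44740 to 51140 in conduit, with a median log2 fold change of 0.49. Over all genes edgeR called 0 of the 10, with 9 at an unadjusted p under 0.05, DESeq2 called 6 and limma-voom 0. Their part in the Gldn and Cldn19 differences was not tested. Markers of non-myelinating and repair Schwann cells summed to 1590 to 1774 CPM in injury and 1491 to 1597 in conduit, and those of satellite glia to 4589 to 5144 and 5154 to 5996. Relative to Pmp22, a protein of compact myelin, Gldn stood at log2 ratios of -6.32, -6.28 and -6.16 in injury and of -6.29, -6.36 and -6.28 in conduit, so the groups overlapped. Relative to the same gene, Cldn19 stood at -4.10, -4.35 and -4.12 in injury and at -4.36, -4.45 and -4.45 in conduit. All 3 conduit ratios of Cldn19 lay below all 3 injury ratios, by 0.23 between the means: Cldn19 differed less between groups than Pmp22 did. These ratios were chosen after the values were seen and are given with no test.

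Nfasc, which encodes both the axonal form of neurofascin at the node and the glial form at the paranode, was at 384, 402 and 371 CPM in injury and at 419, 422 and 418 in conduit. The 3 conduit libraries lay close together and just above the highest injury library. The means were 386 ± 15.5 and 419.7 ± 2.08 CPM (SD, n = 3), a log2 fold change of 0.12 (SE 0.076, 95% interval -0.06 to 0.30; edgeR quasi-likelihood adjusted p = 0.99981). The separation depended on the scaling: in the deposited FPKM values, which are scaled to total counts, Nfasc was 33.9 to 38.0 in injury and 35.7 to 38.1 in conduit. Counts per gene do not separate the axonal and glial forms.

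Nrcam, the second axonal partner of gliomedin, was at 181, 195 and 211 CPM in injury and at 182, 202 and 172 in conduit. The groups overlapped fully, and the log2 fold change was -0.08 (SE 0.0997, 95% interval -0.31 to 0.16). The log2 ratio of Gldn to Nrcam was -1.27, -1.41 and -1.36 in injury and -0.77, -1.01 and -0.54 in conduit. The log2 ratio of Gldn to Nfasc was -2.36, -2.46 and -2.17 in injury and -1.98, -2.07 and -1.82 in conduit. For both genes, the 3 conduit ratios lay above the 3 injury ratios, by 0.57 for Nrcam and 0.37 for Nfasc between means. Gldn by itself also lay higher in all 3 conduit libraries, and Nfasc counts hold both its axonal and glial forms. These ratios are given with no test.

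Cntnap1, the Caspr protein of the paranodal junction, had the lowest fold change of the members. It was at 316, 297 and 264 CPM in injury and at 230.2, 271 and 282 in conduit. Injury sample 3 lay below conduit samples 2 and 3, so the groups overlapped. The means were 292 ± 26.2 and 261 ± 27.2 CPM (SD, n = 3), a log2 fold change of -0.16 (SE 0.114, 95% interval -0.43 to 0.11; edgeR quasi-likelihood adjusted p = 0.99981). The value was -0.09 without injury sample 1 and -0.08 without conduit sample 1, and -0.20 within batch 2. On the FPKM scale, Cntnap1 was 46.1 to 53.4 in injury and 39.9 to 45.7 in conduit, without overlap. In the annotation of GRCr8 the gene overlaps Ccr10, which had 420 counts over the 6 libraries against 67771 for Cntnap1.

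Cntn1, which joins Caspr in the axonal membrane, was at 611, 579 and 601 CPM in injury and at 555, 580.0 and 627 in conduit. Conduit sample 1 was the lowest and conduit sample 3 the highest of all 6 libraries. The log2 fold change was -0.02 (SE 0.084, 95% interval -0.22 to 0.17), and it was 0.02 without conduit sample 1 and 0.0027 without injury sample 1. On the FPKM scale, Cntn1 was 84.2 to 86.2 in injury and 79.0 to 83.6 in conduit. The log2 ratio of Cntnap1 to Cntn1, the partners of 1 complex, was -0.95, -0.97 and -1.19 in injury and -1.27, -1.10 and -1.16 in conduit, with overlap.

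At the juxtaparanode, Cntn2 was at 369.9, 333 and 342 CPM in injury and at 309, 329.5 and 383 in conduit. Cntnap2 was at 158, 156 and 175 CPM in injury and at 146, 167 and 156 in conduit. Conduit sample 1 was the lowest library for both, and the groups overlapped. The log2 fold changes were -0.03 (SE 0.106, 95% interval -0.28 to 0.22) for Cntn2 and -0.06 (SE 0.091, 95% interval -0.27 to 0.16) for Cntnap2. Oligodendrocytes also make Cntn2. In samples 1, 2 and 3, oligodendrocyte markers summed to 387.5, 190.3 and 740.6 CPM in injury and to 731.3, 55.1 and 88.1 in conduit. Their part in the Cntn2 values was not tested. The Cntn2 value was 0.03 without conduit sample 1 and 0.02 without injury sample 1. Cntn2 and Nfasc are neighbouring genes in the GRCr8 annotation.

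Ank3, the ankyrin that anchors sodium channels and neurofascin, was at 210.4, 227 and 243 CPM in injury and at 225, 241 and 220 in conduit. Sptbn4, the spectrin beneath it, was at 71.1, 66.4 and 65.1 CPM in injury and at 54.8, 60.7 and 75.1 in conduit. Conduit sample 3 was the highest library for Sptbn4 and conduit sample 1 the lowest, so the spread in conduit (SD 10.4 CPM) exceeded that in injury (SD 3.17). The log2 fold change was 0.01 (SE 0.089, 95% interval -0.20 to 0.22) for Ank3, and its sign turned under upper quartile scaling (-0.02) and on the FPKM scale (-0.04). For Sptbn4 it was -0.09 (SE 0.126, 95% interval -0.39 to 0.21), and 0.0095 without conduit sample 1. The intervals of the 7 members other than Gldn, Cldn19 and Nfasc all included 0, as did that of Nfasc. Among these 7, the lowest bound was -0.43, for Cntnap1 (-25.9%), and the highest 0.22, for Ank3 (16.8%).

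**Figure D2:**
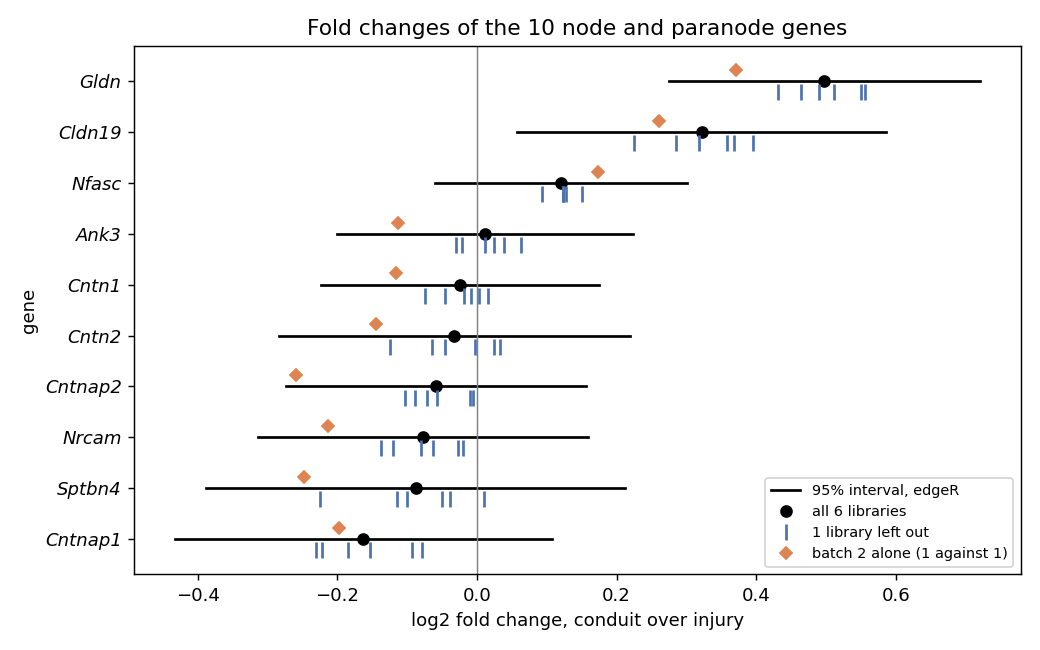
Log2 fold change, conduit over injury (horizontal axis), of the 10 genes: black points and lines are the edgeR estimate and its 95% interval, blue ticks the values with 1 library left out, and orange diamonds conduit sample 1 minus injury sample 3, the libraries of batch 2. The intervals of Gldn (0.27 to 0.72) and Cldn19 (0.06 to 0.59) lie above 0, and the other 8 include it.

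Within batch 2, with 1 library of each group and no test, Gldn, Cldn19 and Nfasc were higher in the conduit library, by 0.37, 0.26 and 0.17. The log2 differences of the other 7 were negative, from -0.11 for Ank3 to -0.26 for Cntnap2, with a median over the 10 members of -0.13. Conduit sample 1 also had the lowest sum of the 10 sensory neuron markers, at 20870 CPM against 22350 in injury sample 3, and the part of this in the lower values was not tested.

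Several members varied together from library to library. Pearson's r over the 6 libraries, on log2 CPM, is given as a description; the libraries share group, depth and tissue makeup. Cntn1 and Cntn2 had r = 0.974, Cntn2 and Sptbn4 0.957, and Cntn1 and Sptbn4 0.939. Gldn and Cldn19 had r = 0.89, and Ank3 and Nrcam 0.858. The lowest value among the 45 pairs was -0.577, for Gldn and Cntnap1. Among 137 tested genes of the pathway and marker lists, the most like Cntn1 was Tubb3, a neuronal tubulin (r = 0.99), followed by Prph, the peripheral neuron filament (r = 0.963). Tubb3 was also most like Cntn2 (r = 0.99), with Olfm1 next (0.989). Sptbn4 was closest to Epb41l3, the axonal protein that links Caspr to the cytoskeleton (r = 0.965), and to Tubb3 (0.958).

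The remaining members had different companions. Gldn was closest to the myelin gene Pmp22 (r = 0.977), and Cldn19 to Pllp (0.995) and Fa2h (0.964), which are also myelin genes. Nfasc was closest to Egr2, the transcription factor that drives myelination (r = 0.95), and to Itgb1, an integrin (0.855). Among the genes most like Cntnap1 was Patj (r = 0.949). For Ank3 the closest were Scn7a (r = 0.862) and Lgi4 (0.858), for Nrcam Dlg2 (0.895) and Cntn5 (0.831), and for Cntnap2 L1cam (0.789) and Dlg2 (0.746). The 10 sensory neuron markers summed to 24360, 23870 and 22350 CPM in injury and to 20870, 22330 and 29900 in conduit, lowest in conduit sample 1 and highest in conduit sample 3, as were Cntn1, Cntn2 and Sptbn4. Relative to Tubb3, the log2 ratio of Cntn1 differed between group means by 0.05 and that of Cntn2 by 0.04.

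**Figure D3:**
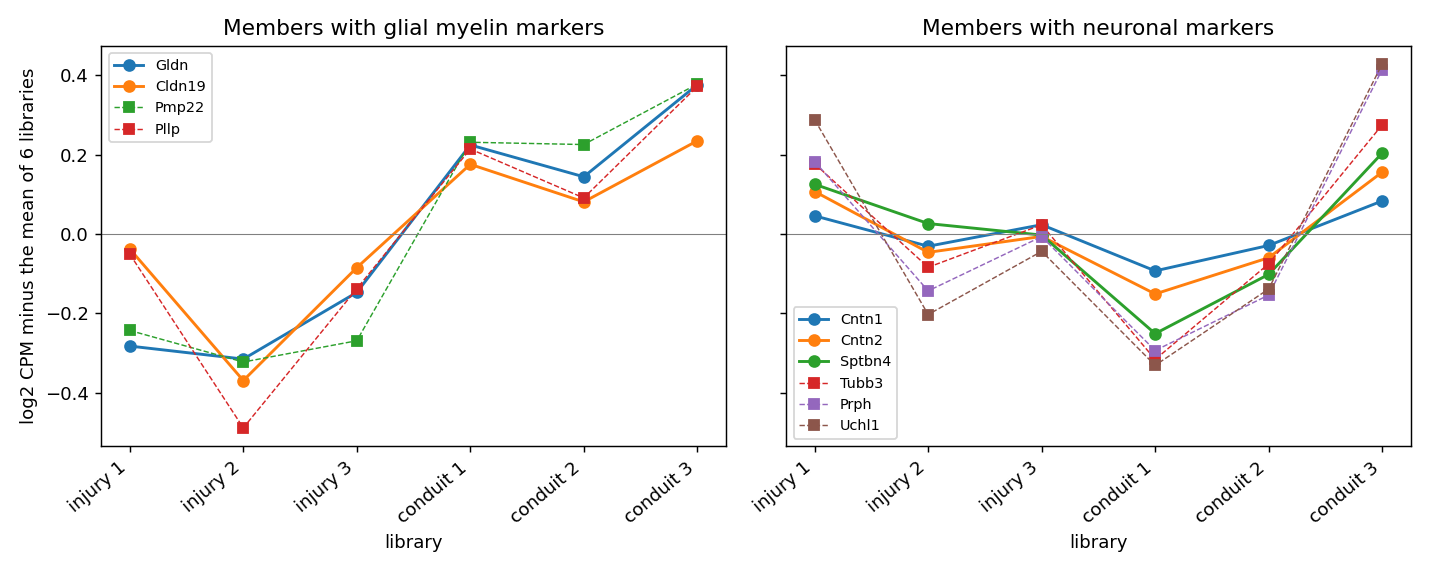
Log2 CPM minus the gene's mean over the 6 libraries (vertical axis) in each library (horizontal axis) for members (solid) and marker genes (dashed); lines only join points of a gene. Gldn and Cldn19 (left) lie below 0 in the 3 injury libraries and above it in the 3 conduit libraries with Pmp22 and Pllp, while Cntn1, Cntn2 and Sptbn4 (right) are lowest in conduit sample 1 and highest in conduit sample 3 with Tubb3, Prph and Uchl1.

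Per length of gene, the paranodal genes were the most abundant members. FPKM values, which divide counts by gene length, averaged 83.5 ± 10.1 for Cldn19 and 83.0 ± 3.07 for Cntn1 over all 6 libraries (SD, n = 6). Their order differed between the groups: Cldn19 was at 67.7 to 80.0 FPKM and Cntn1 at 84.2 to 86.2 in injury, and Cldn19 at 85.9 to 95.2 and Cntn1 at 79.0 to 83.6 in conduit, without overlap in either group. Cntnap1 followed at 47.2 ± 5.15. Nfasc, Cntn2 and Gldn came next at 36.2 ± 1.89, 35.7 ± 2.20 and 34.997 ± 6.20, with ranges over all 6 libraries that overlapped. Nrcam at 17.5 ± 1.74 and Cntnap2 at 14.4 ± 1.05 overlapped, Ank3 was at 10.8 ± 0.798 and Sptbn4 lowest at 6.53 ± 0.647. Gldn was at 27.9 to 31.9 FPKM in injury, below Cntn2 at 36.3 to 37.7, and at 37.3 to 42.6 in conduit, where Cntn2 was at 32.6 to 37.8. The length used, worked out from the counts and FPKM values, was 2.64 kb for Gldn and 21.0 kb for Ank3. How that length was defined is not given, and a gene that uses a form shorter than it would be understated.

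The channels that these proteins hold in place differed little. Of 11 nodal sodium and potassium channel genes, 5 were higher and 6 lower, none without overlap between groups, with a median log2 fold change of -0.03. Over all genes edgeR, DESeq2 and limma-voom called 0 of them, and none had an unadjusted edgeR p under 0.05. Among the smallest p-values on this list were those of Scn2a, a sodium channel, at 5.30 ± 1.08 CPM in injury and 6.76 ± 2.47 in conduit, and Scn3b, a sodium channel beta subunit, at 58.3 ± 3.61 and 54.5 ± 4.64. Scn8a, the main sodium channel of mature nodes, was named for that role and stood at 246, 251 and 222 CPM in injury and 219, 254 and 250.2 in conduit.

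Of 12 genes of the juxtaparanodal potassium channel complex, 4 were higher and 8 lower, none without overlap and none called or under an unadjusted p of 0.05 by edgeR, with a median of -0.02. DESeq2 and limma-voom called 0. Dlg2, a scaffold of the channels, was at 108 ± 7.32 CPM in injury and 103 ± 5.71 in conduit, Adam23 at 637 ± 55.0 and 605 ± 57.5, and Lgi4, a Schwann cell factor that binds axonal Adam22, at 239 ± 46.3 and 256 ± 15.5. The 9 cytoskeletal scaffold genes had a median of 0.02, with 5 higher and 4 lower, none without overlap, none called by the 3 tools and none under an unadjusted edgeR p of 0.05. Among them Epb41l2, the Schwann cell relative of Epb41l3, was at 188 ± 4.05 CPM in injury and 222 ± 37.4 in conduit, Mapre3 at 173 ± 25.5 and 184 ± 28.9, and Epb41l3 at 812 ± 9.86 and 779 ± 92.3.

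The 15 genes of microvilli, nodal matrix and basal lamina had a median log2 fold change of 0.18, the highest of the 6 pathway lists. Counts of whole ganglia do not show which cells made these transcripts. By library, the list's median log2 CPM, after each gene's mean over the 6 libraries was taken off, was -0.243, -0.0398 and -0.0176 in injury. In conduit it was 0.243, 0.0936 and -0.0398, so the groups overlapped. There were 12 higher and 3 lower, and 4 were higher without overlap, against 5.41% of all genes tested with conduit above. The 3 tools called 0 of the 15 over all genes. At an unadjusted edgeR p under 0.05, 3 were higher, against 2.99% of all genes tested. Dag1, dystroglycan, which helps form nodal microvilli, was at 815, 768 and 830.3 CPM in injury and at 1049, 945 and 937 in conduit, a log2 difference of 0.28 with an SE of 0.087 (adjusted p = 0.754 in edgeR's quasi-likelihood test). Itga6, a laminin receptor subunit, was at 271, 295 and 322 CPM in injury and 401, 371 and 332 in conduit, a log2 difference of 0.32 with an SE of 0.109 (adjusted p = 0.827 in edgeR's quasi-likelihood test). Lamb1, a laminin chain, was at 243, 309 and 305 CPM in injury and 389.8, 349.6 and 328 in conduit, a log2 difference of 0.32 with an SE of 0.124 (adjusted p = 0.906 in edgeR's quasi-likelihood test). For each of these 3 genes conduit sample 1 was the highest library.

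Of 14 genes of glial junctions and internodal adhesion, 11 were higher and 3 lower, with a median of 0.13. The 3 tools called 0 of them, 1 was higher at an unadjusted edgeR p under 0.05, and 1, Patj, was lower without overlap. The gene with the smallest p was Cadm4, the Schwann cell adhesion molecule of the internode, at 525, 356 and 415 CPM in injury and at 547, 509.6 and 641 in conduit, with overlap, a log2 difference of 0.39 with an SE of 0.163 (adjusted p = 0.930 in edgeR's quasi-likelihood test). Tjp1, a tight junction scaffold, was at 104 ± 12.4 CPM in injury and 128 ± 18.5 in conduit, and Pard3, a polarity protein of Schwann cells, at 24.9 ± 1.27 and 28.4 ± 2.25. Patj, a scaffold of cell junctions, was at 101, 95.9 and 94.3 CPM in injury and at 88.0, 92.4 and 93.8 in conduit.

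The relatives of the members, 13 tested contactins, Caspr and L1 family proteins and olfactomedin-domain proteins, had a median of 0.06, with 8 higher and 5 lower and none without overlap. None was called by the 3 tools or had an unadjusted edgeR p under 0.05. L1cam, an axonal relative of Nfasc and Nrcam, was at 364 ± 11.02 CPM in injury and 339.8 ± 24.1 in conduit, Chl1 at 125 ± 12.6 and 135 ± 12.4, and Cntn5, scarce here, at 0.905 ± 0.419 and 0.581 ± 0.226. Cntn3, Cntn4, Cntn6, Cntnap3, Cntnap4 and the Cntnap5 genes did not exceed 29.0 CPM in any library.

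**Figure D4:**
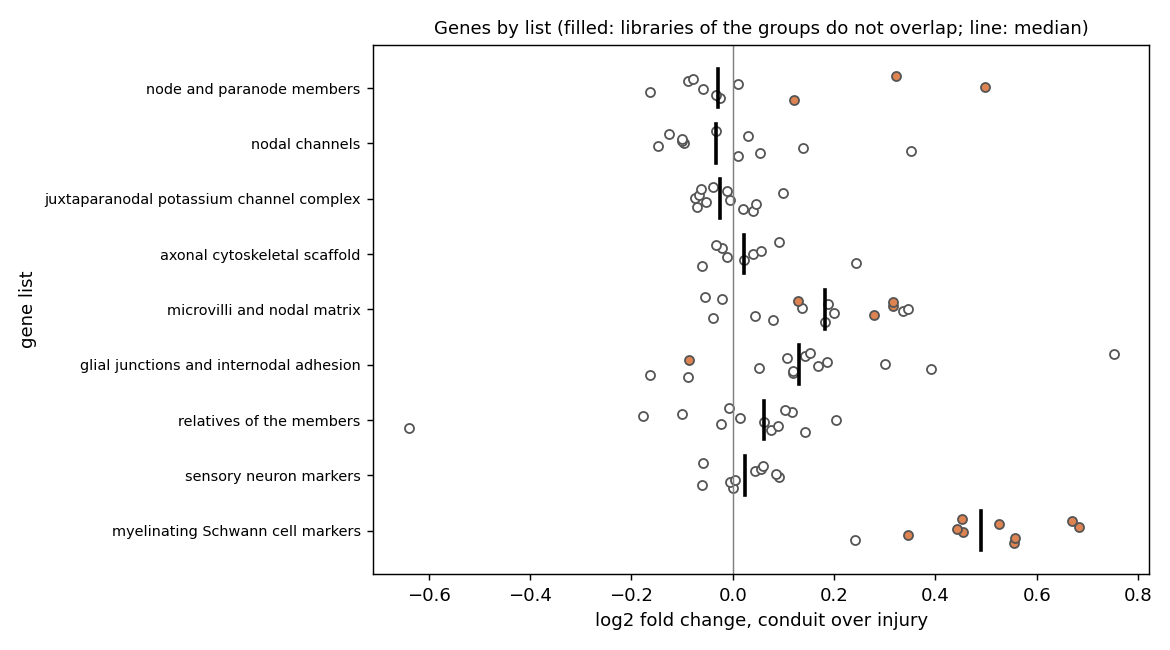
Log2 fold change, conduit over injury (horizontal axis), of each tested gene, by list (vertical axis); filled points mark genes whose groups do not overlap and the line is the list's median. The 3 filled points among the members are Nfasc, Cldn19 and Gldn, and Gldn and Cldn19 lie within the range of the myelinating Schwann cell markers (0.24 to 0.68).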

How the data were processed

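Total RNA of trigeminal ganglia was sequenced as mRNA libraries in 6 rat samples. Per the submitters' processing notes, fastp, HISAT2, HTSeq, SAMtools and DESeq2 were used with build mRatBN7.2; for the versions, the annotation and the strand setting the sources used here give nothing. Counts as deposited are whole reads per gene symbol, and the deposited FPKM values are those counts scaled by gene length and library total: all 15192 genes with at least 10 counts in each library gave the same length in every library within 0.1%.

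Groups came from the sample titles. Genes passing edgeR's filterByExpr (minimum of 10 counts) were TMM-scaled and tested with the quasi-likelihood F test (robust option) of edgeR 4.0.16 (R 4.3.3), with Benjamini-Hochberg adjusted p under 0.05 over 16478 genes. Standard errors were derived from the F statistic, and 95% intervals from them with the test's degrees of freedom. DESeq2 1.42.0, limma 3.58.1, other scalings, filters, covariates and left-out libraries were alternatives. Log2 CPM for correlations used a prior count of 2. No libraries agreed within sampling noise (lowest chi-square per degree of freedom 30.4).

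The members and lists were chosen with earlier results of these data known. Beside all members, the text names the 3 genes per pathway list with the smallest p and, for each member, the 2 listed genes with the highest r; Scn8a, Patj, the low contactins and Caspr relatives, and the genes in ratios and of central glia were named outside this rule. Of the listed genes, 4 were not found by symbol, and some that the rule would name are not reported here.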

Additional observations from a re-analysis of the deposited data

How the results depend on the processing

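Gldn, Cldn19, Nfasc, Cntnap1 and Cntnap2 kept their direction in all 19 alternatives run, and Gldn passed the threshold with DESeq2 only. The count of genes called over the whole table, 1 with edgeR, was 6 without a filter, 7 and 3 with limma on log2 FPKM with pseudocounts of 1 and 0.1, 210 with DESeq2, 0 with the replicate block, 0 with batch in the fit, and 0 to 38 with each library left out; 0 members were called in these except by DESeq2. Leaving out injury samples 2 and 3 together, an alternative chosen with earlier results known, gave 23 genes. Replicate numbers did not pair the samples: deviations of same-numbered samples correlated at -0.417, 0.0574 and -0.0715, and with the block Gldn had an edgeR adjusted p of 0.951. The members' median of -0.03 was -0.13 with batch in the fit and in batch 2 alone, and -0.06 to 0.02 with each library left out. Batch in the fit and batch 2 alone are not separate checks: both rest on conduit sample 1 against injury sample 3. The count of members without overlap was 3 to 5 with each library left out, at most 3 higher and 2 lower, the latter without conduit sample 3. The share over all genes tested rose as well, from 9.63% to between 14.4% and 27.1%, highest without conduit sample 3.

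Directions turned for some genes, all but Cntn5 with log2 fold changes near 0. Ank3 was -0.016 under upper quartile scaling, -0.039 and -0.042 on log2 FPKM with pseudocounts of 1 and 0.1, -0.11 with batch in the fit and in batch 2 alone, and -0.0305 to 0.063 with each library left out. With batch in the fit and in batch 2 alone, Lgi4 was -0.078, Mapre3 -0.13 and Chl1 -0.057. With each library left out, Cntn1 ranged from -0.074 to 0.016, Cntn2 from -0.12 to 0.033, Sptbn4 from -0.23 to 0.0095, Adam23 from -0.15 to 0.0051, Lgi4 from -0.0304 to 0.24, Mapre3 from -0.0354 to 0.21 and Epb41l3 from -0.15 to 0.024. Without injury samples 2 and 3, Nrcam was 0.032, Dlg2 0.052, Mapre3 -0.11 and Cntn5 0.45. The cause was not tested.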

Other observations

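Genes of central nodes and myelin differed between libraries of the same group. Mag, the myelin-associated glycoprotein of both central and peripheral myelin, was at 158, 109 and 204 CPM in injury and at 243, 100.1 and 101 in conduit. Mobp, a protein of central myelin, was at 260.2, 112 and 511 CPM in injury and at 484, 25.3 and 54.5 in conduit. Conduit sample 1 and injury sample 3, the libraries of batch 2, were the highest for both genes. Hapln2, a link protein of the matrix at central nodes, was at 21.6, 21.8 and 45.4 CPM in injury and at 55.5, 13.3 and 10.3 in conduit. All 8 oligodendrocyte markers had lower means in conduit, with a median log2 fold change of -0.59 and 0 without overlap. Within batch 2 the median over these markers was 0.02, for conduit sample 1 minus injury sample 3. Cldn1, a claudin of the perineurium, was at 21.5, 29.3 and 16.0 CPM in injury and at 55.6, 37.8 and 19.0 in conduit, with overlap.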
